A study of Mus musculus with 22 samples.

Results

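Cd209a, Clec10a, Btla, Flt3, Zbtb46, Ccr7, Irf4, Clec9a, Xcr1 and Itgae, genes known from dendritic cells, were followed through RNA-seq libraries of sorted retinal microglia. They are 10 of the 35596 genes counted. The set was chosen by listing dendritic cell genes after Cd209a, Clec10a and Btla had shown lower measured levels in phagocytic than in non-phagocytic cells of these libraries. The values of that contrast thus selected the genes and are given below as a description without a test. Only the comparisons between genotypes are tested for these genes, and they share their libraries with that contrast.

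The 22 libraries came from the retinas of 12-week-old mice, either C57BL/6 wild type or Apoe-/- (strain label Apoe KO), the latter lacking the lipid carrier apolipoprotein E. All mice, of both genotypes, had received apoptotic neurons by injection into the vitreous, and the header of the authors' table places the profiling 24 hours after it. Libraries were made by SMART-Seq2, which copies whole transcripts into cDNA and works on few cells. Cells were sorted as CD11b+, Ly6c- and Fcrls+, and Alexa488 then parted cells that had taken up the injected material (phagocytic) from those that had not (non-phagocytic). The groups were wild-type non-phagocytic (n = 5), wild-type phagocytic (n = 5), Apoe-/- non-phagocytic (n = 6) and Apoe-/- phagocytic (n = 6). There was no uninjected group. Each library pooled 5 to 6 retinas of 1 sex and genotype, with 100 to 500 phagocytic cells in a sample and lysates of 100 to 300 cells in 5 µl. A p-value therefore measures the spread between pools, and a pool of few cells can gain or lose a rare transcript by sampling.

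Dendritic cells take up antigen in tissues, mature, and carry it to lymph nodes, where they present it on MHC class II to T cells. Conventional dendritic cells fall into a type 1 that carries Xcr1 and Clec9a and often Itgae, and a type 2 that depends on Irf4 and, in the mouse, often carries Cd209a or Clec10a. The growth factor receptor Flt3 and the transcription factor Zbtb46 mark both types, and Ccr7 guides mature cells to lymph nodes. The healthy retina holds few dendritic cells, and some of these genes are also found in monocyte-derived cells, macrophages or lymphocytes.

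Sequences before the RefSeq start are shown of Cd209a, which had the highest level of the set, and of Btla, which had no reads in any wild-type phagocytic library. Each is the 250 bases before the RefSeq transcription start (GRCm38.p6, the assembly of mm10), 5′ to 3′ on the gene's strand. Cd209a lies on the minus strand at chr8:3743397-3748984, with its window at chr8:3748985-3749234. Btla lies on the plus strand at chr16:45224315-45257670, with its window at chr16:45224087-45224336. The Btla window runs past the GENCODE start of the gene, since its RefSeq start lies further downstream. Capitals mark the only motif match found in either window, which lies between these starts and thus inside the gene as GENCODE annotates it.
Cd209a: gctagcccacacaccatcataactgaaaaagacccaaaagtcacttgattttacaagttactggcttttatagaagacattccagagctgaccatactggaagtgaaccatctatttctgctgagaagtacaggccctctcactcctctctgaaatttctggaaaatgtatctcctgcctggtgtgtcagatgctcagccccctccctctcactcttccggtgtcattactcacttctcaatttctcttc
Btla: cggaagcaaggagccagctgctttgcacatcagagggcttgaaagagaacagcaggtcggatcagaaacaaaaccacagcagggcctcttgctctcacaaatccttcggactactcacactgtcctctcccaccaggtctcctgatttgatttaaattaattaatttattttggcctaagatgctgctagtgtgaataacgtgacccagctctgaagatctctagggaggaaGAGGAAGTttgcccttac
The motifs searched on both strands were the ETS-IRF composite element (GGAA and GAAA parted by any 2 bases), bound by PU.1 with IRF4 or IRF8, the PU.1 element GAGGAAGT and the AP-1 element TGANTCA. RefSeq windows were matched for 7 of the 10 genes, namely Cd209a, Btla, Flt3, Zbtb46, Irf4, Clec9a and Xcr1. Btla held 1 PU.1 match and Zbtb46 held 1 AP-1 match, while the other 5 windows held none of these letters. The Zbtb46 window (chr2:181424389-181424638) lies inside the GENCODE gene, downstream of its annotated start, so its match is not upstream of that start. Among 32851 windows of the same length, 2.3% held the ETS-IRF letters, 2.44% the PU.1 letters and 6.75% the AP-1 letters. A match describes the letters of a window and not a bound site.

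Libraries held 1131045 to 3643499 estimated reads and 16547 to 21776 detected genes, with 9.14% to 51.7% of reads on 12 satellite-like predicted genes. Apoe reached at least 869 CPM in each wild-type library and at most 34.9 CPM in each Apoe-/- library. All 11 microglia markers (P2ry12, Tmem119 and others) had reads in all 22 libraries, with a summed level of 3692 to 16550 CPM. The wild-type non-phagocytic pools 4 and 5 stood apart for the dendritic cell genes. The sum over the 10 genes was 475 and 385 CPM in these pools against 170, 42.3 and 30.6 CPM in the wild-type non-phagocytic pools 1, 2 and 3. Medians over the tested genes of the set that rest on pools 4 and 5 are therefore given with and without them. Medians of other lists are given with all libraries only. CPM here are reads relative to the library total after TMM scaling.

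Per length, in TPM averaged over the 22 libraries, Cd209a was highest at 22.8 ± 32 (SD), followed by Clec10a at 13.6 ± 16.1 and Ccr7 at 9.17 ± 13.6. Zbtb46 (2.54 ± 1.63), Irf4 (2.25 ± 3.43), Flt3 (1.93 ± 2.08), Btla (1.27 ± 1.71), Xcr1 (1.04 ± 0.49), Clec9a (0.989 ± 1.83) and Itgae (0.677 ± 0.973) followed. Neighbours in this order differed by less than the SD of either gene, except Ccr7 and Zbtb46, whose difference exceeded the SD of Zbtb46 but not that of Ccr7. Zbtb46, Flt3 and Xcr1 had reads in all 22 libraries, Cd209a and Clec10a in 21, and Btla in 11. In the authors' deposited table of FPKM values, which keeps genes above 5 in at least 1 library, the highest value of Cd209a was 169.7 and that of Clec10a 81.7, both in wild-type non-phagocytic pool 4. Xcr1 and Itgae are not listed in the authors' deposited table.

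**Figure D1:**
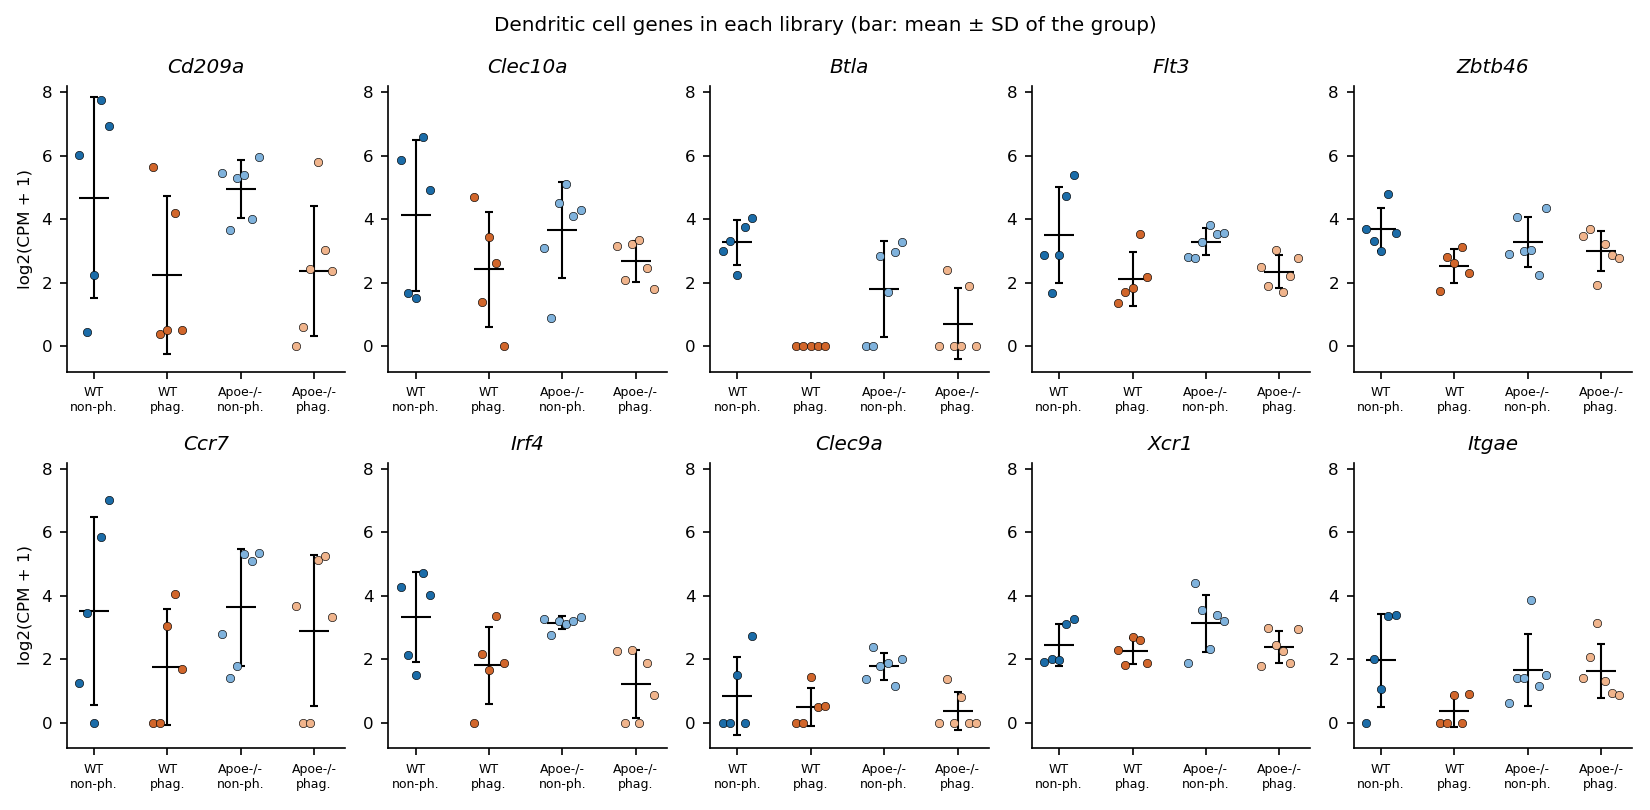
Level of each gene in each library, as log2(CPM + 1) on the y axis, for the 4 groups on the x axis; points are libraries in the order of their pool numbers, and bars are mean ± SD. Btla is at 0 in all 5 wild-type phagocytic libraries, and the spread of Cd209a, Clec10a and Ccr7 within groups covers several log2 units.

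The C-type lectins Cd209a and Clec10a bind sugars on antigens and cells and serve in their uptake. Cd209a reached 64.8, 0.374, 3.73, 215 and 121 CPM in wild-type non-phagocytic pools 1 to 5, and 49.2, 0.322, 0.429, 17.5 and 0.444 CPM in wild-type phagocytic pools 1 to 5. In Apoe-/- libraries its lowest, median and highest levels were 11.8, 39.6 and 61.1 CPM in non-phagocytic cells and 0, 4.32 and 54.6 CPM in phagocytic cells. Both genotypes thus held overlapping ranges, with 3 of the 5 wild-type phagocytic libraries at 1 read of Cd209a each and wild-type non-phagocytic pool 2 at 1 read as well. The means were 81.0 ± 89.9 CPM (SD, n = 5) in wild-type non-phagocytic and 13.6 ± 21.3 CPM (n = 5) in wild-type phagocytic cells, a log2 fold change of -2.56 ± 1.15 (SE), and 35.0 ± 18.6 CPM (n = 6) and 11.8 ± 21.1 CPM (n = 6) in Apoe-/- cells, a log2 fold change of -1.68 ± 1.08. Wild-type non-phagocytic pools 4 and 5 together held 44.6% of the Cd209a CPM summed over the 22 libraries.

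Clec10a (chr11:70156197-70170834, plus strand) followed Cd209a most closely among the genes of the set. It reached 57.1, 2.24, 1.86, 96.5 and 29.5 CPM in wild-type non-phagocytic pools 1 to 5, and 25, 1.61, 9.86, 5.13 and 0 CPM in wild-type phagocytic pools 1 to 5. In Apoe-/- libraries the lowest, median and highest levels were 0.84, 17.5 and 33.3 CPM in non-phagocytic cells and 2.51, 6.24 and 9.09 CPM in phagocytic cells. Pools 1 and 4 were the highest wild-type non-phagocytic libraries, pools 2 and 3 lay within the phagocytic range, and the groups overlapped in both genotypes. The log2 fold change of phagocytic against non-phagocytic cells was -2.15 ± 0.87 in wild-type and -1.46 ± 0.82 in Apoe-/- cells.

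Btla, an inhibitory receptor of the immunoglobulin family, is carried by dendritic cells and lymphocytes. It reached 7.05, 8.97, 3.73, 12.5 and 15.6 CPM in wild-type non-phagocytic pools 1 to 5, from 10 to 36 reads each, and had 0 reads in all 5 wild-type phagocytic libraries. The wild-type groups therefore did not overlap. Against a floor of 3 reads per library, the mean of Btla was at least 7.92-fold lower in these wild-type phagocytic libraries. The floor covers counting error only, not the spread between pools, and these values chose the gene. In Apoe-/- cells it reached 0, 4.24 and 8.85 CPM (lowest, median and highest) in non-phagocytic libraries and 0, 0 and 4.32 CPM in phagocytic libraries, with reads in 4 of 6 and 2 of 6 libraries. The Apoe-/- groups overlapped, with a log2 fold change of -1.83 ± 1.02. Wild-type non-phagocytic pools 1, 2 and 3 also held 10 to 24 reads of Btla.

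Flt3 (chr5:147330741-147400489, minus strand), the receptor of the growth factor that drives dendritic cell development, reached 6.34, 2.24, 6.34, 25.5 and 41.2 CPM in wild-type non-phagocytic pools 1 to 5, and 1.56, 2.25, 2.57, 10.7 and 3.55 CPM in wild-type phagocytic pools 1 to 5. The 2 highest values were again those of non-phagocytic pools 4 and 5, and pools 1 to 3 lay within the phagocytic range. In Apoe-/- libraries Flt3 reached 5.88, 9.70 and 13.1 CPM in non-phagocytic and 2.27, 4.14 and 7.24 CPM in phagocytic cells, lowest, median and highest. The log2 fold change was -1.98 ± 0.63 in wild-type and -1.06 ± 0.58 in Apoe-/- cells. Of the Flt3 reads, 48% were assigned to the coding transcript and 52% to a non-coding transcript of the gene.

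Ccr7 (chr11:99144196-99155077, minus strand), the chemokine receptor of migrating mature dendritic cells, varied widely within groups. It reached 1.41, 10.1, 0, 56.4 and 127.8 CPM in wild-type non-phagocytic pools 1 to 5, and 0, 0, 7.29, 15.8 and 2.22 CPM in wild-type phagocytic pools 1 to 5. Wild-type non-phagocytic pools 4 and 5 stood above all other wild-type libraries. In Apoe-/- libraries Ccr7 reached 1.68, 19.7 and 40 CPM in non-phagocytic and 0, 10.5 and 36.9 CPM in phagocytic cells, lowest, median and highest, so that the ranges nearly coincided. The log2 fold change was -2.97 ± 1.23 in wild-type and -0.49 ± 1.06 in Apoe-/- cells.

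The transcription factor Zbtb46 (chr2:181387762-181459426, minus strand), a marker of conventional dendritic cells, reached 12.0, 8.97, 7.08, 27.1 and 10.8 CPM in wild-type non-phagocytic pools 1 to 5, and 2.34, 6.11, 5.15, 7.70 and 4.00 CPM in wild-type phagocytic pools 1 to 5. Only phagocytic pool 4 reached the non-phagocytic range. In Apoe-/- cells the means were 10.01 ± 6.23 and 7.56 ± 3.27 CPM in non-phagocytic and phagocytic libraries (n = 6 each). The log2 fold change was -1.36 ± 0.50 in wild-type and -0.39 ± 0.46 in Apoe-/- cells.

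Irf4 (chr13:30749226-30766976, plus strand), the transcription factor on which type 2 dendritic cells depend, reached 18.3, 3.37, 1.86, 25.5 and 15.2 CPM in wild-type non-phagocytic pools 1 to 5, and 0, 3.54, 2.14, 9.41 and 2.67 CPM in wild-type phagocytic pools 1 to 5. Here the ranges overlapped through non-phagocytic pools 2 and 3. In Apoe-/- cells Irf4 reached 5.88, 8.24 and 9.16 CPM in non-phagocytic and 0, 1.77 and 3.90 CPM in phagocytic libraries, lowest, median and highest, and the groups did not overlap. The log2 fold change was -1.83 ± 0.79 in wild-type and -1.97 ± 0.77 in Apoe-/- cells.

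Of the type 1 genes, Xcr1 (chr9:123852315-123862029, minus strand), a chemokine receptor, had means of 5.01 ± 2.87 and 3.97 ± 1.38 CPM in wild-type non-phagocytic and phagocytic libraries (n = 5 each) and 9.23 ± 6.20 and 4.52 ± 1.95 CPM in Apoe-/- non-phagocytic and phagocytic libraries (n = 6 each), with a log2 fold change of -0.34 ± 0.55 and -1.01 ± 0.51. Clec9a (chr6:129408862-129424763, plus strand), a receptor for actin exposed by dead cells, had 0 to 13 reads per library and was present in all 6 Apoe-/- non-phagocytic libraries (1.26 to 4.20 CPM), in 2 of 5 wild-type non-phagocytic, 3 of 5 wild-type phagocytic and 2 of 6 Apoe-/- phagocytic libraries. Itgae (chr11:73090583-73147446, plus strand), the integrin CD103, had means of 4.57 ± 4.51 and 0.349 ± 0.478 CPM in wild-type non-phagocytic and phagocytic cells (n = 5 each) and 3.42 ± 4.97 and 2.66 ± 2.66 CPM in Apoe-/- non-phagocytic and phagocytic cells (n = 6 each). Clec9a and Itgae did not pass the low-count filter and entered no fit across genes. Itgae also overlaps Haspin on the opposite strand and Clec9a overlaps Clec1b on the same strand, and the strand setting is not given in the sources used here, so reads of these pairs may be mixed.

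Of the 10 genes, 8 passed the low-count filter. All 8 had a negative fold change of phagocytic against non-phagocytic cells in both genotypes, where 50.8% of all 12415 genes tested were negative in wild-type and 52.3% in Apoe-/- cells. Their median log2 fold change was -2.06 in wild-type and -1.26 in Apoe-/- cells, against -0.01 and -0.02 over all genes tested. Groups did not overlap for Btla in wild-type cells and for Irf4 in Apoe-/- cells, against 2.14% and 0.87% of all genes tested. These counts come from the contrast that chose the genes, and nothing is read from them. In bulk libraries, fewer cells of a type and less RNA per cell cannot be told apart.

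**Figure D2:**
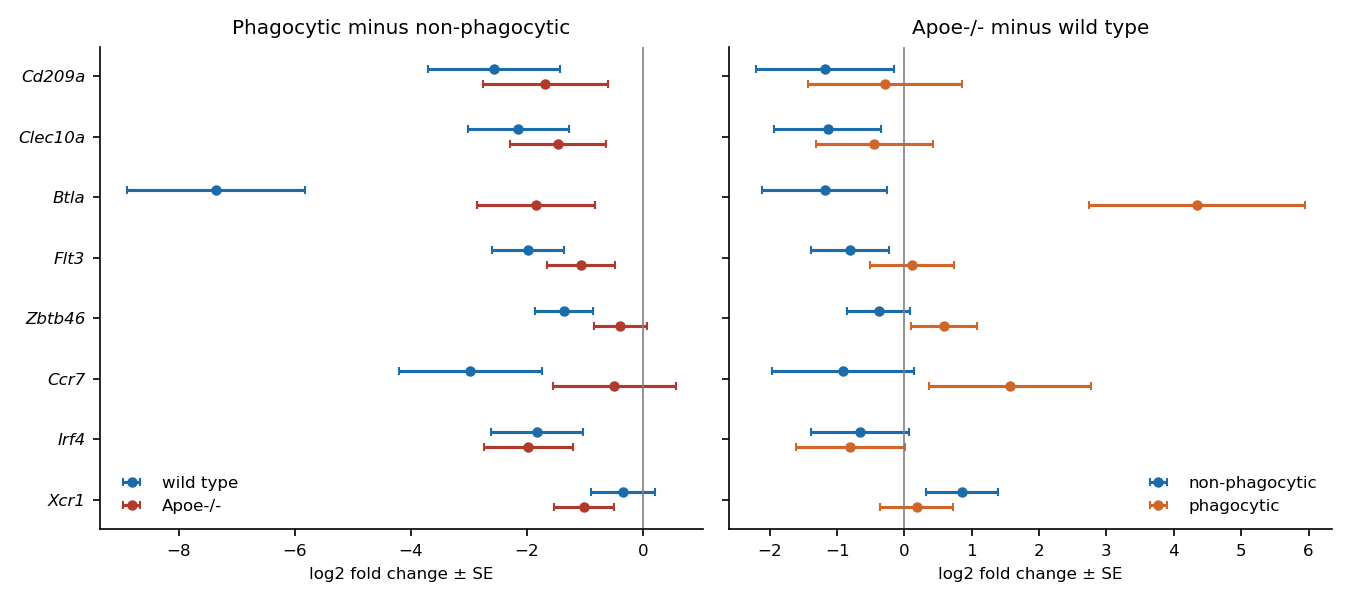
Log2 fold change ± SE (x axis) of the 8 genes that passed the low-count filter (y axis), for phagocytic minus non-phagocytic cells by genotype on the left and for Apoe-/- minus wild type by sort on the right. All points on the left lie below 0, whereas on the right they lie on both sides of 0. The Btla values for wild type on the left and for phagocytic cells on the right rest on a group with 0 reads.

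Wild-type non-phagocytic pools 4 and 5 were picked after seeing their high levels of these genes, so leaving them out raises the set's fold changes by construction. Without these pools the wild-type median of the 8 genes was -0.77 in place of -2.06, and 6 of 8 were negative. The log2 fold change of Cd209a was then -0.68 ± 1.26, that of Clec10a -1.23 ± 0.96 and that of Flt3 -0.26 ± 0.64. Ccr7 stood at 0.31 ± 1.36 and Xcr1 at 0.42 ± 0.66, with the opposite sign. The wild-type phagocytic libraries are the same in this fit, so their 0 reads of Btla could not change. Btla had reads in each of the 3 non-phagocytic libraries that remained. These values chose Btla, and nothing is read from them.

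**Figure D3:**
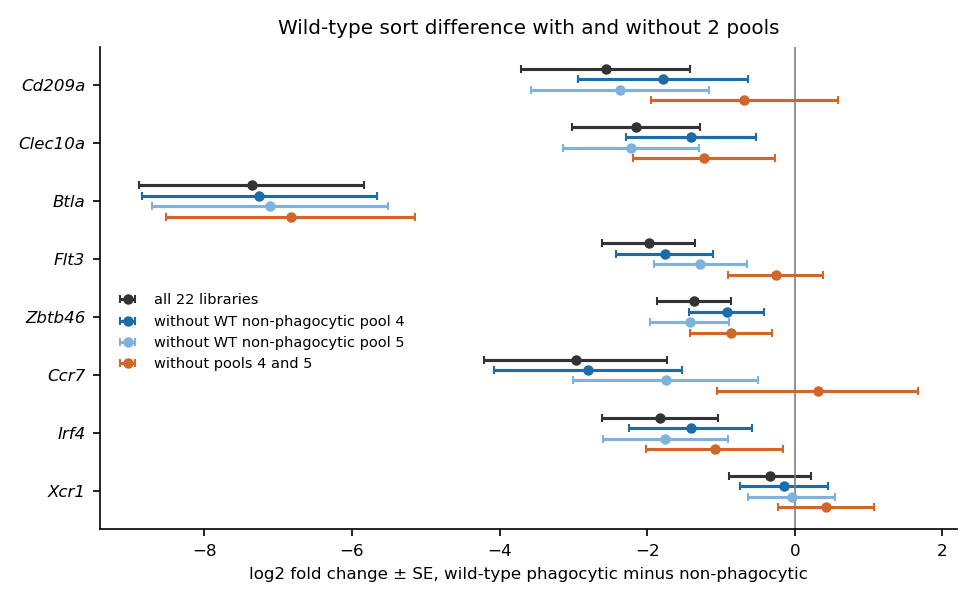
Log2 fold change ± SE (x axis) of wild-type phagocytic against non-phagocytic cells for the 8 genes (y axis), from all 22 libraries and without wild-type non-phagocytic pool 4, pool 5 or both. Cd209a moves from -2.56 to -0.68 and Ccr7 from -2.97 to 0.31 when both pools are left out.

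The question of genotype, whether loss of Apoe went with another level of these genes, was tested within each sort. None of the 8 genes passed an adjusted threshold of 0.05 between Apoe-/- and wild-type non-phagocytic cells, where 0.0161% of all genes did, and none had an unadjusted p under 0.05, against 3.8% of all genes. No gene had groups that did not overlap (0.298% of all genes), and DESeq2 called none of the 8. Their fold changes were negative for 7 of 8, with a median of -0.86 log2 units, where 50.3% of all genes tested were negative. Each adjusted p of the 8 genes was 0.999 (edgeR quasi-likelihood test, Benjamini-Hochberg). Cd209a stood at -1.18 ± 1.02, Clec10a at -1.14 ± 0.79, Btla at -1.19 ± 0.92, Flt3 at -0.81 ± 0.57 and Ccr7 at -0.92 ± 1.06. Xcr1 was the exception with 0.86 ± 0.53. The non-phagocytic libraries belong to the contrast that chose Cd209a, Clec10a and Btla, so nothing is read from the values of these genes here. Wild-type non-phagocytic pools 4 and 5 were picked for their high levels of these genes, so leaving them out raises the set's fold changes by construction. Without these pools the median was 0.40 and 2 of 8 were negative, and nothing is read from this turn of sign. Some other lists had mostly negative values in the same comparison and others did not, with none of their genes called. MHC class II genes were negative for 10 of 10 (median -0.77), other type 2 dendritic cell genes for 9 of 9 (median -0.42), dendritic cell partners for 7 of 8 (median -0.34) and monocyte markers for 7 of 8 (median -1.13). Other type 1 genes were negative for 6 of 11 (median -0.06), mature or migratory genes for 8 of 15 (median -0.08) and plasmacytoid genes for 3 of 7 (median 0.03). Border macrophage markers were negative for 6 of 7 (median -0.69), neutrophil markers for 3 of 4 and microglia markers for 7 of 11 (median -0.03). Rod and cone genes were negative for 1 of 6, B cell markers for 1 of 3 and T and NK cell markers for 0 of 2. These list values include wild-type non-phagocytic pools 4 and 5. The 50 tested genes of the 5 further dendritic cell lists were negative for 33, with a median of -0.22, and 5 had an unadjusted p under 0.05. The part of these markers in the values of the 10 genes was not tested.

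Between Apoe-/- and wild-type phagocytic cells, none of the 8 genes passed the threshold either, against 0.0322% of all genes, and DESeq2 called none of them. No gene had groups that did not overlap, against 0.789% of all genes, and 1, Btla, had an unadjusted p under 0.05, against 6.62%. Btla had reads in 2 of 6 Apoe-/- and 0 of 5 wild-type libraries, and the latter belong to the contrast that chose it, so nothing is read from its p. The same limit holds for Cd209a and Clec10a, which were chosen from that contrast too. Of the 8 fold changes 5 were positive and 3 negative, with a median of 0.14, where 50.5% of all genes tested were negative. Ccr7 stood at 1.57 ± 1.21, Zbtb46 at 0.59 ± 0.49, Irf4 at -0.81 ± 0.81 and Cd209a at -0.29 ± 1.14. The SE of these estimates is of the size of a 2-fold difference or more for Cd209a and Ccr7, so a difference of that size was not detectable here. In this comparison MHC class II genes were negative for 9 of 10 (median -0.63), monocyte markers for 8 of 8 (median -1.80) and the 50 genes of the further dendritic cell lists for 32 (median -0.12), none of them called. By list, other type 2 dendritic cell genes were negative for 8 of 9 (median -0.44) and partners for 8 of 8 (median -0.34). Other type 1 genes were negative for 6 of 11 (median -0.02) and plasmacytoid genes for 4 of 7 (median -0.04). Mature or migratory genes were negative for 6 of 15 (median 0.27), and rod and cone genes for 1 of 6 (median 0.64). Markers of microglia were negative for 10 of 11, of neutrophils for 4 of 4 and of border macrophages for 5 of 7. B cell markers were negative for 2 of 3 and T and NK cell markers for 0 of 2.

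Whether the sort contrast differed by genotype was tested as an interaction. None of Flt3, Zbtb46, Ccr7, Irf4 and Xcr1 passed, in edgeR or DESeq2. Of all genes, 0% passed in edgeR, and 2 genes did in DESeq2. The set was listed with earlier results of these libraries known, so this test is not independent of that choice. The interactions of Cd209a, Clec10a and Btla hold the sort values that chose the set, so they are given without a p. Btla stood at 5.53 ± 1.85. Of the genes listed after them, none of Flt3, Zbtb46, Ccr7, Irf4 and Xcr1 had an unadjusted p under 0.05, against 2.42% of all genes. The estimates were 0.89 ± 1.55 for Cd209a, 0.69 ± 1.19 for Clec10a, 2.48 ± 1.6 for Ccr7 and -0.14 ± 1.02 for Irf4. Estimates were positive for 6 of the 8 genes and negative for Irf4 and Xcr1, whose fold change between sorts was further from 0 in Apoe-/- cells. Their median was 0.90, and 51.5% of all genes tested were negative. Without wild-type non-phagocytic pools 4 and 5, picked for high levels of these genes, 6 of the 8 were negative, with a median of -0.79. No fold change between sorts is thus shown to differ between the genotypes, in either direction.

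For Clec9a and Itgae, the genotypes were compared within each sort by a two-sided exact permutation test of log2(CPM + 1), 4 tests in all, in which 462 splits allow a smallest p of 0.00216. Clec9a differed by 0.93 in non-phagocytic (exact permutation, adjusted p = 0.229) and -0.13 in phagocytic libraries (adjusted p = 0.719, exact permutation). Itgae differed by -0.30 in non-phagocytic libraries (exact permutation, adjusted p = 0.719). In phagocytic libraries Itgae was higher in Apoe-/- cells by 1.26, with reads in 6 of 6 Apoe-/- and 2 of 5 wild-type libraries, a raw exact permutation p of 0.0173 and an adjusted p of 0.0693, which missed the threshold.

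The genes were next set against the rest of the dendritic cell programme. Of 71 genes on 5 further dendritic cell lists, 50 were tested, and none passed an adjusted threshold of 0.05 for phagocytic against non-phagocytic cells in either genotype (edgeR). Of all genes tested, 0.209% passed in wild-type cells (0.0161% as lower) and 0.467% in Apoe-/- cells (0.0644% as lower). They were positive for 22 and negative for 28 in wild-type cells, with a median of -0.11, and positive for 24 and negative for 26 in Apoe-/- cells, with a median of -0.06. At an unadjusted p under 0.05 stood 6 of the 50 in wild-type cells (1 positive and 5 negative), against 7.74% of all genes, and 10 in Apoe-/- cells (6 positive and 4 negative), against 9.93% of all genes. DESeq2 called 0 in wild-type and 2, Irf7 and Kmo, in Apoe-/- cells. The edgeR fit above did not pair pools by number. With same-numbered pools as a block, Ifitm1, Ccl17 and Ccl5 passed in wild-type cells, where 135 of all genes did. In Apoe-/- cells Ccl5, Cd274 and Irf7 then passed, where 255 of all genes did.

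Of the other type 2 genes, 9 were tested and 6 were negative in each genotype. Klf4, a transcription factor of type 2 development, stood at -0.44 ± 0.29 in wild-type and -0.68 ± 0.27 in Apoe-/- cells, and Ifitm1, a membrane protein that restricts viruses, at -1.63 ± 0.85 and -0.92 ± 0.79. Sirpa, the receptor that marks type 2 cells and also macrophages, stood at 0.16 ± 0.23 and 0.45 ± 0.22. Of the other type 1 genes, 11 were tested, with 7 negative in wild-type and 4 in Apoe-/- cells. Batf3, the transcription factor of type 1 cells, stood at -0.89 ± 0.40 and -0.65 ± 0.37, Wdfy4, needed for cross-presentation, at -0.71 ± 0.28 and 0.03 ± 0.26, and Dpp4, a surface peptidase, at -1.48 ± 1.09 and -2.74 ± 1.13.

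Genes of mature or migratory dendritic cells were positive for 9 of 15 in wild-type and 10 of 15 in Apoe-/- cells. Ccl5, a chemokine made by many activated cells, had means of 125 ± 126 and 579 ± 695 CPM in wild-type non-phagocytic and phagocytic libraries (n = 5 each) and 285 ± 131 and 1596 ± 1296 CPM in Apoe-/- libraries (n = 6 each), with an adjusted p of 0.477 and 0.195 (edgeR). Cd274, which encodes PD-L1, stood at 0.66 ± 0.36 and 0.99 ± 0.33, and Ccl17, a chemokine of dendritic cells that draws T cells, at -2.04 ± 1.10 and -1.03 ± 1.00. Of the plasmacytoid genes, 7 were tested, and Irf7, the interferon regulator that is also induced in other cells, stood at 0.82 ± 0.43 in wild-type and 1.69 ± 0.40 in Apoe-/- cells, with an adjusted p of 0.0506 (edgeR) in the latter.

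Among the growth factor and chemokine partners, 8 were tested, and Kmo, an enzyme of tryptophan breakdown, had the smallest p. It had means of 29.9 ± 36.9 and 5.74 ± 1.79 CPM in wild-type non-phagocytic and phagocytic cells and 22.5 ± 14.2 and 4.88 ± 4.44 CPM in Apoe-/- cells, with log2 fold changes of -2.37 ± 0.75 and -2.30 ± 0.72 and adjusted p of 0.298 and 0.198 (edgeR). Cdh1, an adhesion protein, stood at -1.78 ± 0.72 and -1.78 ± 0.68. Itgax, the integrin CD11c, stood at -0.42 ± 0.41 and -0.72 ± 0.38.

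Genes of MHC class II were negative for all 10 tested of 11 in both genotypes, with medians of -1.31 and -1.30. Of these, H2-DMb2, a chaperone of peptide loading, fell in Apoe-/- phagocytic cells (mean 64.3 ± 26.0 to 16.5 ± 8.34 CPM, log2 fold change -1.97 ± 0.40, adjusted p = 0.0205, edgeR), and it stood at -1.90 ± 0.42 in wild-type cells (adjusted p = 0.0518, edgeR). Ciita, the regulator of class II genes, stood at -2.17 ± 0.75 and -1.26 ± 0.70. The summed class II level was 16450 and 9699 CPM in wild-type non-phagocytic pools 4 and 5 against 5344, 2215 and 1875 CPM in pools 1, 2 and 3, the same pools in which Cd209a was high and low. The wild-type phagocytic sums were 1033 to 4922 CPM (median 3144). Pools 2 and 3 lay within that range and pool 1 above it, so the higher non-phagocytic sum in wild-type cells rested mainly on pools 4 and 5. In Apoe-/- cells the median sums were 3873 CPM in non-phagocytic and 1596 CPM in phagocytic libraries. Class II genes are also expressed by macrophages and B cells.

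**Figure D4:**
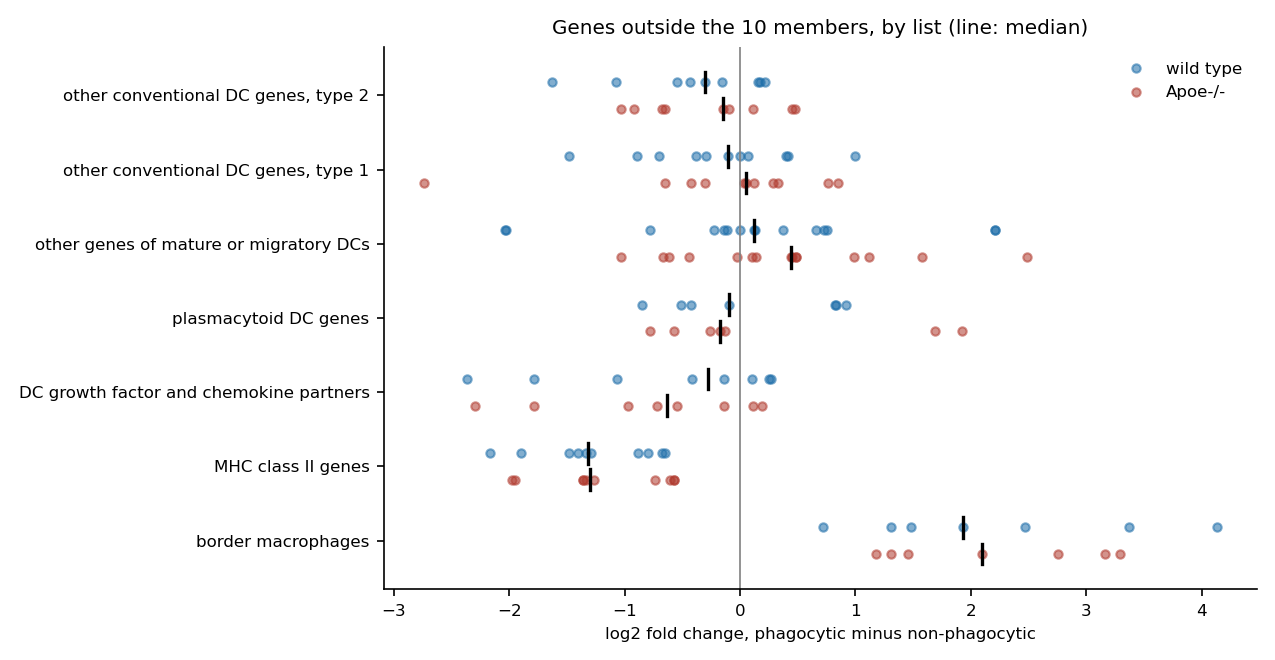
Log2 fold change of phagocytic against non-phagocytic cells (x axis) for each tested gene of 7 lists (y axis) that is not among the 10 genes, by genotype, with the list's median as a line. MHC class II genes lie below 0 and border macrophage markers above 0, while the 5 dendritic cell lists lie on both sides.

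Near relatives of the lectins were checked, since reads of similar genes can be split by the counting. Of 9 relatives, 3 were tested. Cd209c, a neighbour of Cd209a in its gene family, had means of 39.3 ± 26.9 and 14 ± 2.61 CPM in wild-type non-phagocytic and phagocytic cells (log2 fold change -1.48 ± 0.43, adjusted p = 0.192, edgeR) and 32.5 ± 15.9 and 24.9 ± 9.11 CPM in Apoe-/- cells (-0.38 ± 0.38). Mgl2, the nearest relative of Clec10a, stood at -1.07 ± 0.69 and -0.15 ± 0.67, and Cd209d at -1.94 ± 1.12 and -2.59 ± 1.31. Cd209b, Cd209e, Cd209f, Cd209g, Asgr1 and Asgr2 had group means of at most 3.10 CPM. Of the Cd209a and Clec10a reads, 99.2% and 94.8% were assigned to coding transcripts, and how reads were shared between relatives cannot be seen in these files.

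Within groups the genes did not all vary together. Over the 22 libraries, the Pearson correlation of deviations from the group means (log2 CPM, prior count 2) was 0.707 between Cd209a and Clec10a and 0.676 between Flt3 and Irf4, and lay between 0.027 and 0.528 for the other 26 pairs. All these points share library depth and scaling. By the same measure, the tested genes most like Cd209a were the class II genes H2-Aa (0.871) and H2-Ab1 (0.821) and Plbd1 (0.816). Those most like Clec10a were Cd74 (0.82), the class II invariant chain, Ccnd2 (0.815) and H2-Eb1 (0.813). Btla had Ifi214 (0.781), Gm14418 (0.761) and Gnb4 (0.728), Flt3 had Cnn2 (0.868), P2ry10 (0.805) and Zyx (0.796), and Ccr7 had H2-Q7 (0.845), Ikbke (0.819) and Fem1c (0.805). Zbtb46 had Hist4h4 (0.824), Auts2 (0.781) and Pacs1 (0.778), Irf4 had Gm1966 (0.857), Zswim7 (0.817) and Cdh1 (0.779), and Xcr1 had Echs1 (0.803), Uggt2 (0.793) and Olfr1277 (0.781). These most similar genes were picked as the highest among 12415 tested genes over 22 libraries. High values are expected from such picking alone, and none was tested.

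**Figure D5:**
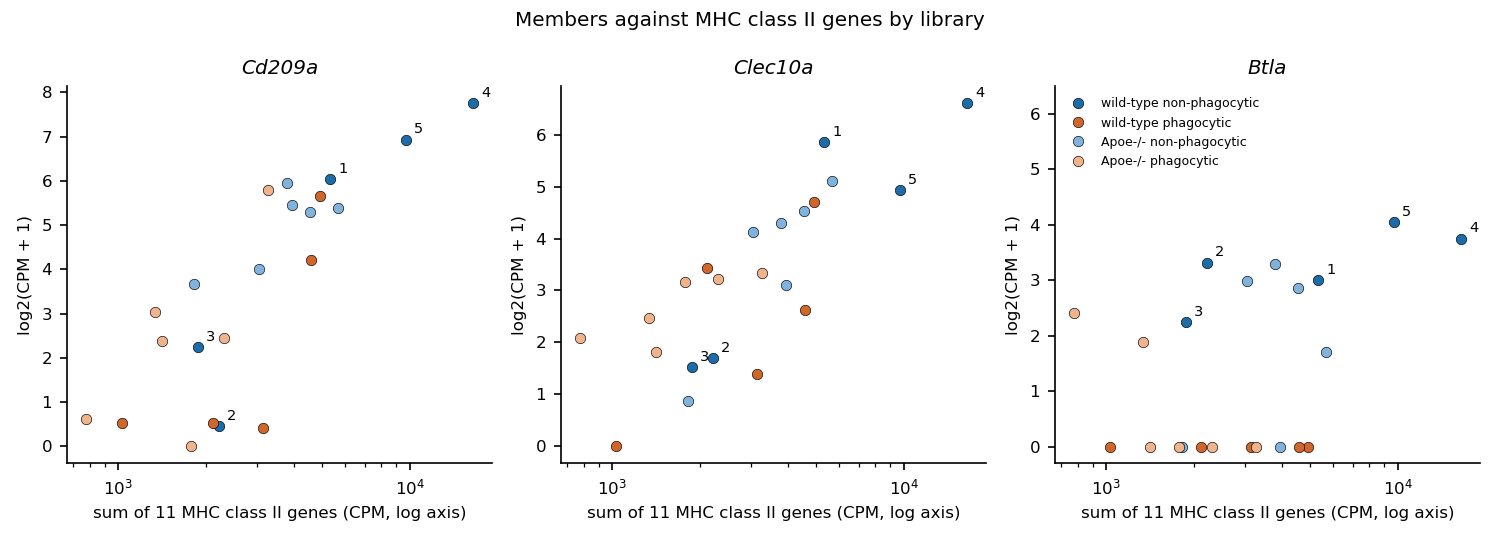
Level of Cd209a, Clec10a and Btla as log2(CPM + 1) on the y axis against the summed CPM of 11 MHC class II genes on a log x axis, 1 point per library, with wild-type non-phagocytic pools numbered. Correlations of the deviations from group means were 0.817 for Cd209a, 0.826 for Clec10a and 0.08 for Btla, and wild-type non-phagocytic pools 4 and 5 are the 2 libraries with the highest class II sum.

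Markers of other cells were measured in the same libraries. Monocyte markers summed to 1197 CPM in wild-type non-phagocytic pool 4 and 1370 CPM in wild-type phagocytic pool 4, against 58.0 to 659 CPM in the other 8 wild-type libraries, although cells were sorted as Ly6c-. The same 2 libraries had the lowest wild-type sums of microglia markers, 3811 and 3692 CPM. Over the 22 libraries, the correlation of deviations with the monocyte sum was 0.635 for Cd209a, 0.623 for Clec10a, 0.593 for Flt3, 0.579 for Irf4, 0.501 for Zbtb46, 0.319 for Ccr7, 0.219 for Xcr1 and 0.187 for Btla. With the microglia sum it was negative for all 8, from -0.546 for Flt3, -0.545 for Cd209a and -0.526 for Ccr7 to -0.21 for Clec10a. These points share library scaling, and Xcr1 also had 0.603 with the share of satellite-like reads. Of 9 monocyte markers 8 were tested, 5 positive and 3 negative in each genotype and none called. Border macrophage markers were positive for all 7 tested in both genotypes, and Pf4 and F13a1 rose in each, Pf4 from 9.07 to 94.8 CPM in wild-type cells (adjusted p = 0.0113, edgeR).

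Btla is also a lymphocyte gene, so the sums of lymphocyte markers are given by group. The 12 T and NK cell markers, of which 4 to 12 had reads in a library, summed to 11.6 to 40.7 CPM (median 16.2) in wild-type non-phagocytic and 5.15 to 12.9 CPM (median 9.84) in wild-type phagocytic libraries. Non-phagocytic pools 5 and 4 were the highest, at 40.7 and 27.7 CPM. In Apoe-/- libraries these sums were 15.2 to 49.6 CPM (median 35.0) in non-phagocytic and 11.6 to 51.8 CPM (median 24.2) in phagocytic cells. The 8 B cell markers summed to medians of 200.6 and 142.5 CPM in wild-type and 168.2 and 98.0 CPM in Apoe-/- non-phagocytic and phagocytic libraries, mostly Ighm and Cd79b. Both sums thus had higher medians in non-phagocytic cells of each genotype, with overlapping ranges. Of the tested B cell markers, Ighm stood at -0.64 ± 0.36 and -0.75 ± 0.34, and Cd79b at 0.67 ± 0.37 and 0.11 ± 0.34. The part of monocytes or lymphocytes in the levels of the 10 genes was not tested.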

How the data were processed

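RNA of sorted microglia in 22 libraries (4 groups) was read by SMART-Seq2. For each library the authors deposited, per the file headers, the estimated count and the TPM of every transcript, with lengths, and for the series a table of FPKM values that keeps genes above 5 in at least 1 library (used only for highest levels). Salmon 1.4.0, R 4.0.3, DESeq2 1.30.1 and mm10 are named, without roles, per the submitters' processing notes. The sources used here do not give the annotation or strand setting. Of 116248 transcripts, 116072 matched GENCODE M21 and 176 (0.118% to 0.262% of reads) were left out. Deposited estimated counts were summed over 35596 genes and rounded to whole numbers.

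The main test was edgeR's (version 4.0.16, R 4.3.3; quasi-likelihood, TMM, filterByExpr, 1 fit over 22 libraries and 4 groups), which kept 12415 genes with a common biological coefficient of variation of 0.426, with Benjamini-Hochberg adjustment and a threshold of 0.05. The test was checked on simulated data. Alternatives were DESeq2 1.42.0, other scaling and filters, only the groups compared, length-scaled counts, no satellite-like genes, a replicate block and leaving out each library. Reads carry no molecular identifiers. The 10 genes and the lists were chosen with earlier results of these data known. Named by rule were all 10 genes, the lectin relatives, on each other list the genes called or up to 4 with the smallest p of the sort comparison (not all are printed), and the 3 most similar genes of each. Libraries of a group were not copies (chi-square per degree of freedom 6.47 to 62.4).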

Additional observations from a re-analysis of the deposited data

Results flagged for a closer look

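Libraries far from the others of their group appeared in 6 of 39 sets of 1 gene in 1 group. The cutoff gives about 1 in 20 only for normally distributed values. CPM of these low counts are skewed, with many libraries at or near 0, so this share is not set against chance. For Cd209a this was Apoe-/- phagocytic pool 4 with 54.6 CPM, next to 7.21 CPM, and without it the Apoe-/- log2 fold change between sorts was -3.70 in place of -1.68. For Flt3 it was wild-type phagocytic pool 4 with 10.7 CPM (next 3.55 CPM), and for Zbtb46 wild-type non-phagocytic pool 4 with 27.1 CPM (next 12.0 CPM). For Clec9a it was wild-type phagocytic pool 3 with 1.72 CPM (next 0.444 CPM), a difference of a few reads. Itgae had 2 such libraries, Apoe-/- non-phagocytic pool 4 with 13.5 CPM (next 1.83 CPM) and Apoe-/- phagocytic pool 3 with 7.80 CPM (next 3.24 CPM). Pool 4 of either genotype accounts for 4 of the 6.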

How the results depend on the processing

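None of the 10 genes was called between genotypes or in the interaction in any fit across genes that was run. Nothing is read from this for Cd209a, Clec10a and Btla, which the sort values chose. Calls among the further dendritic cell genes, 0 in both genotypes, became 2 in wild-type and 3 in Apoe-/- cells with no filter, 2 in Apoe-/- cells with DESeq2, 2 with only the groups compared, 1 on counts scaled by length and 2 without wild-type non-phagocytic pools 4 and 5, and lay between 0 and 1 when single libraries were left out. The cause was not tested. DESeq2 called 102 genes in wild-type and 182 in Apoe-/- cells against 26 and 58 with edgeR. Over all genes, no filter gave 122 and 137, the fit without wild-type non-phagocytic pools 4 and 5 gave 74 in wild-type cells, that without Apoe-/- non-phagocytic pools 2 and 5 gave 16 in Apoe-/- cells, and single libraries left out gave 13 to 64 and 18 to 89. Between genotypes, 4 genes in phagocytic and 2 in non-phagocytic cells became 96 and 16 with no filter, and 24 in phagocytic cells with DESeq2.

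Pool numbers were not used as pairs in the main fit, and the sample titles do not say whether same-numbered libraries share retinas. Same-numbered libraries of both sorts correlated at 0.04 to 0.423 in wild-type and 0.063 to 0.214 in Apoe-/- cells, with 4 of 5 and 4 of 6 over 0.1. In wild-type cells 2 of 5 and in Apoe-/- cells 5 of 6 matched best with their own number. The correlations of same-numbered libraries were all above 0, so these libraries were alike to some degree, most clearly in Apoe-/- cells. What they share was not tested. The main fit leaves this likeness out and called 26 genes in wild-type and 58 in Apoe-/- cells between sorts. With a replicate block, 135 genes in wild-type and 255 in Apoe-/- cells were called, of which 3 and 3 were further dendritic cell genes, and none of the 10 genes in the interaction.

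Signs of uncalled genes turned without wild-type non-phagocytic pools 4 and 5, which were picked after seeing their high levels of these genes. Between genotypes in non-phagocytic cells the values were then 0.69 for Cd209a, 0.90 for Flt3, 0.10 for Zbtb46, 2.34 for Ccr7 and 0.072 for Irf4, and in the interaction -0.98 for Cd209a, -0.22 for Clec10a, -0.80 for Flt3 and -0.78 for Ccr7. With length-scaled counts, phagocytic cells gave 0.21 for Clec10a and -0.54 for Zbtb46, and the interaction -0.051 for Zbtb46. Leaving out single libraries gave ranges that crossed 0 between genotypes in phagocytic cells for Cd209a (-2.30 to 1.26), Clec10a (-0.77 to 0.56), Flt3 (-0.10 to 0.82) and Clec9a (-0.33 to 0.11), in non-phagocytic cells for Zbtb46 (-0.70 to 0.051), Ccr7 (-1.22 to 0.29) and Itgae (-0.79 to 0.058), and in the interaction for Cd209a (-1.15 to 2.44), Clec10a (-0.053 to 1.70) and Irf4 (-0.57 to 0.59). In the permutation tests, Clec9a in non-phagocytic cells without wild-type pool 5 (adjusted p = 0.0346, exact permutation) and Itgae in phagocytic cells without Apoe-/- pool 6 (adjusted p = 0.0317, exact permutation) passed the threshold. Itgae also passed without wild-type non-phagocytic pool 5, which is not in its comparison but changes the adjustment over the 4 tests. Few reads per gene, 0 to 397 in a library, limit all these values.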
